A study of Mus musculus with 12 samples.

Results

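Open chromatin was compared between untreated and decitabine-treated B16F10 cells, a mouse melanoma line, in 6 of the 12 ATAC-seq samples of the series. ATAC-seq uses a transposase that inserts sequencing adapters where DNA is not wrapped in nucleosomes, so a peak marks an accessible stretch. One group of 3 libraries came from B16F10 cells without drug and the other, also of 3, from B16F10 cells kept for 48 h in 0.1 µM decitabine (DAC). In both groups dead cells were taken out with magnetic beads, nuclei were transposed with a Nextera kit, and the libraries were amplified and size-selected. Groups were taken from the sample labels, which do not say whether replicates were separate cultures, so every p-value measures only the spread between these libraries. A single line was used, and the cells carry no other genetic change that the labels name.

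Decitabine is a cytidine analogue that is built into DNA, where it traps the DNA methyltransferases and so lowers cytosine methylation as cells divide. Promoters of some germ cell genes are held silent by methylation in other tissues. AP-1, a dimer of JUN and FOS family proteins, is a sequence-specific activator whose binding is often seen at enhancers, while MITF and SOX10 are the regulators that define the melanocyte lineage. CTCF is an insulator protein whose binding is blocked by methylation at some of its sites.

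The 3 control lists held 49602 to 53295 peaks on the 19 autosomes and X and the 3 DAC lists 54007 to 58443. Total reads were not used here, but the number of fragments at each summit, here called the pileup, could be recovered from the authors' fold enrichment and p-value. The genome background recovered in this way was 1.663 to 1.801 fragments in controls and 1.603, 2.004 and 1.65 in DAC replicates 1 to 3, and a peak on that background needed 7 fragments, or 8 in DAC replicate 2. DAC replicate 2 had the longest list, and it is also the list with 0 peaks on unplaced scaffolds (504 to 530 in the others); the part of this difference in the results was not tested. Median fold enrichment was 8.48, 8.64 and 8.21 in controls and 7.67, 7.50 and 7.52 in DAC libraries, lower in every DAC library, so libraries were compared by rank. Of 20 pigment and melanosome genes, 17 had a promoter peak in every library. The 16 regulators of the melanocyte lineage did not stand out in this way. Of them, 8 had a promoter peak in every library and 8 in none, beside 10524 of 21738 genes with one in every library. Of the markers of other cell types, 1 to 2 of 18 leukocyte genes, 1 to 2 of 16 fibroblast and endothelial genes, 1 of 16 epithelial genes, 1 to 2 of 14 neuronal genes and 2 of 12 hepatocyte genes had one. The only gained promoter among them was that of neuronal Rbfox3. Gained and lost are peaks present in all libraries of 1 group and none of the other (2.26% and 0.886% of all regions). Fibroblast and endothelial genes had 4 gained and 1 lost of 98 regions (4.08% and 1.02%). Epithelial genes had 4 and 0 of 85 (4.71% and 0.0%) and neuronal genes 2 and 4 of 44 (4.55% and 9.09%). Leukocyte genes had 0 gained and 0 lost of 44 regions and hepatocyte genes 0 and 0 of 32. The part of such cells in the results was not tested. In bulk samples a change in a share of the cells and a change in every cell cannot be told apart.

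Peaks of the 6 libraries were merged into 79461 regions. A region is called gained when 3 of 3 DAC libraries and 0 of 3 controls had a peak in it, and lost for the reverse. The 35979 regions with a peak in all 6 libraries were ranked by fold enrichment within each library, and a region is re-ranked when its rank score differed between the groups in limma at an adjusted p under 0.05. A rank percentile of 100 is the strongest of these regions in a library. The sequences printed first are the 200 bases around the summit of regions that held the AP-1 motif (TGACTCA on either strand) and that were among the 5 strongest gained or most raised regions, plus 2 that show the motif in several copies. They are from GRCm38, forward strand, with the AP-1 motif in capitals.
Senp7 (chr16:56096538-56096737): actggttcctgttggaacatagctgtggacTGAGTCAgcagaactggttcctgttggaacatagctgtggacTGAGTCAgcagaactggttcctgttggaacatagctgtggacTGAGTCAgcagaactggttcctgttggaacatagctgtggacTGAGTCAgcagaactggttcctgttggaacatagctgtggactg
Klf6 (chr13:5837445-5837644): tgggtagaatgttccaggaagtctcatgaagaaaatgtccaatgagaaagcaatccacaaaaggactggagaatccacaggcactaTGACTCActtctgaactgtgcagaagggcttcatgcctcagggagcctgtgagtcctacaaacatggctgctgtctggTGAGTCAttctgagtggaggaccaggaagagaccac
Trim24 (chr6:37723387-37723586): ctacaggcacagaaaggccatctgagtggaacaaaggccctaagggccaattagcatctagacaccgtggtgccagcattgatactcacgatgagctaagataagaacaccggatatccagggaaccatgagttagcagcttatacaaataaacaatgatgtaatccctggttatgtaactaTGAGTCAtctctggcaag
Socs1 (chr16:10754617-10754816): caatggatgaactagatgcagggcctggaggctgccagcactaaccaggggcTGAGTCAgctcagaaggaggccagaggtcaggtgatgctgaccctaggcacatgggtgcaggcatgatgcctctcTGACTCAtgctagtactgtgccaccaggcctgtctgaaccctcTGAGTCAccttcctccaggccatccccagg
Zfp622 (chr15:26051525-26051724): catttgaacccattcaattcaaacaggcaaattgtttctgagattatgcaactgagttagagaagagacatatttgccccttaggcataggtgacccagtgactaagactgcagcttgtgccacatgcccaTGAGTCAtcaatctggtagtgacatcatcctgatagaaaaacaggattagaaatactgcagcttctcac
Hmgb1 (chr5:149144081-149144280): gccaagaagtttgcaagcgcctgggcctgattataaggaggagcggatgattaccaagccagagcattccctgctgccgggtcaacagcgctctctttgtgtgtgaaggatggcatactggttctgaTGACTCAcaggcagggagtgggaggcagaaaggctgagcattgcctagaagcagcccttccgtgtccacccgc
Oxsr1 (chr9:119265997-119266196): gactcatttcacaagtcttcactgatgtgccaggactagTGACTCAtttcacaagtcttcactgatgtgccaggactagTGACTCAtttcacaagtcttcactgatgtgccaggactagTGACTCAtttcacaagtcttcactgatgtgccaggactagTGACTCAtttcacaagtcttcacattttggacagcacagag
The window in an intron of Senp7, which encodes a SUMO protease, holds 4 copies of the motif spaced 42 bp apart, and the whole region of 697 bp held 8. The window in an intron of Oxsr1, which encodes a stress-responsive kinase, also holds 4, spaced 40 bp apart, with 7 in a region of 376 bp. Reads can be hard to place where a unit recurs in this way. The Klf6 and Socs1 windows hold 2 and 3 copies. Oxsr1 and Socs1 were added to the display after their values were seen.

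Regions with an AP-1 motif within 100 bp of the summit stood higher in the order of open regions after DAC. The ranks are those of the 2201 such regions that had a peak in all 6 libraries. Over them the median rank percentile was 38.6, 38.7 and 39.7 in the 3 controls and 49.7, 48.6 and 50.04 in the 3 DAC libraries. The groups did not overlap, and the difference of 10.4 percentile points was many times the SD of 0.575 in controls and 0.731 in DAC libraries (n = 3 each). With 3 libraries in each group the smallest p of a two-sided exact permutation test is 0.1, which this measure gave (adjusted p = 0.3 over 51 measures).

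The shift was larger where the motif was present more than once. Shared regions with no AP-1 motif, 33778 of them, had median ranks of 50.8, 50.7 and 50.6 in controls and 50.0, 50.1 and 50.0 in DAC libraries. With 1 motif (2071 regions) the medians were 39.2, 39.0 and 40.1 against 49.3, 48.4 and 49.9. With 2 or more (130 regions) they were 33.1, 31.5 and 35.5 against 57.8, 53.4 and 50.9, so that regions in the lower part of the untreated order lay above the middle after DAC. AP-1 regions at promoters, 210 of them, showed little of this, with 63.5, 62.9 and 63.4 against 65.8, 64.7 and 65.7. Outside promoters the 1991 AP-1 regions stood at 36.1, 36.4 and 37.8 against 48.3, 47.2 and 48.7. These splits by copy number and place were chosen after the data were seen and are given as descriptions.

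**Figure D1:**
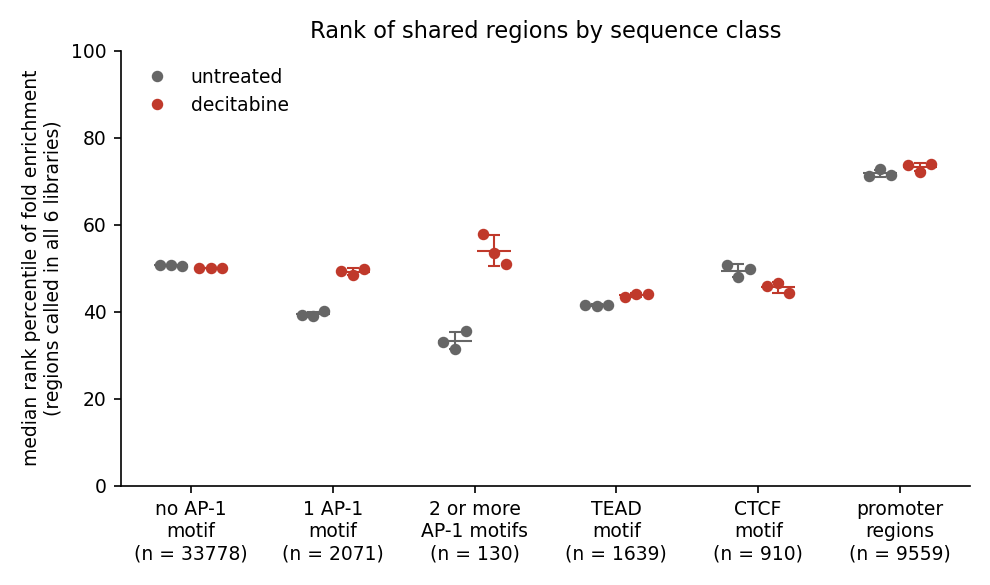
Median rank percentile of fold enrichment (vertical axis) of the regions called in all 6 libraries, by motif within 100 bp of the summit and for promoter regions (horizontal axis, n is the number of regions). Points are libraries, bars the mean and SD of 3; untreated libraries lie at 31.5 to 35.5 and DAC libraries at 50.9 to 57.8 for regions with 2 or more AP-1 motifs, and the regions without the motif stay between 50.0 and 50.8 in every library.

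The same could be read from whole peak lists. An AP-1 motif lay at the summit of 5.59, 5.49 and 5.73% of peaks in controls and of 7.52, 7.67 and 7.63% in DAC libraries (exact permutation, p = 0.1, adjusted p = 0.3). Of the 20 motifs examined, 5 had shares of peaks whose groups did not overlap. The others were TEAD (ACATTCC), the factor that YAP works through, with 4.59 ± 0.0799% against 4.77 ± 0.0690% (SD, n = 3), the palindromic E-box CACGTG with 4.38 ± 0.0777% against 4.57 ± 0.0300%, the SOX motif ACAATG with 12.88 ± 0.124% against 13.07 ± 0.0735%, and CTCF, which went the other way with 2.53 ± 0.0422% against 2.26 ± 0.0293%. All of these differ far less than AP-1. The SOX groups nearly touched, at 13.007% in control replicate 1 and 13.012% in DAC replicate 1. With the motif sought within 50 bp of the summit, the SOX difference was only 0.0056 percentage points. The CRE motif TGACGTCA, which differs from AP-1 by 1 added base, was at 0.802 ± 0.0113% and 0.83 ± 0.0213% with overlapping groups, and so was the M-box TCACATG that MITF recognises, at 4.73 ± 0.0795% and 4.76 ± 0.0806%.

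CTCF regions stood lower in the order after DAC. The median rank of the 910 shared regions with the CTCF core motif was 50.7, 47.9 and 49.8 in controls and 45.8, 46.6 and 44.3 in DAC libraries. Every DAC library was below every control, although the gap of 3.89 points is less than the 10.4 of AP-1, and the lowest control lies 1.3 points above the highest DAC library. Shared TEAD regions stood at 41.5 ± 0.195 against 43.9 ± 0.429 and SOX regions at 45.7 ± 0.349 against 47.5 ± 0.147 (SD, n = 3). Of the motifs whose shared regions rank high, 3 stood slightly higher, NFY (CCAATCA) at 70.8 ± 0.563 against 72.8 ± 0.556, ETS (CCGGAAG) at 77.0 ± 0.703 against 78.2 and NRF1 at 79.2 ± 0.274 against 81.2 ± 1.40. These were all of the 20 motifs whose median ranks did not overlap between the groups. The SP and KLF motif GGGGCGGGG, at 68.5 ± 0.847 against 68.6 ± 1.23, and the CRE, at 74.1 ± 0.245 against 73.97 ± 0.913, overlapped. Every motif whose median ranks did not overlap gave p = 0.1 in the exact permutation test and an adjusted p of 0.3.

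**Figure D2:**
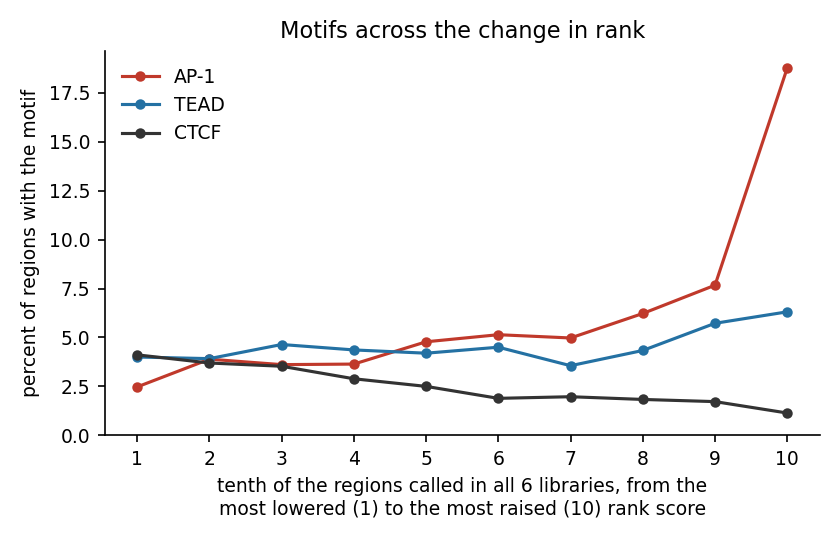
Percent of regions that hold the AP-1, TEAD or CTCF motif (vertical axis) in 10 equal bins of the 35979 regions called in all 6 libraries, ordered by the difference in rank score between DAC and control libraries (horizontal axis). The AP-1 line runs from 2.47% in the most lowered bin to 18.8% in the most raised, with a steep last step from 7.67%, and the CTCF line falls from 4.11% to 1.14%.

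DAC libraries gained 1796 regions (2.26% of all regions) and lost 704 (0.886%). Most were weak: the lowest of the 3 calling libraries had a median pileup of 13 fragments in gained and in lost regions, against medians of 46 to 59 in the shared regions of each library. Only 269 gained and 159 lost regions had at least 20 fragments in all 3. The gained share of these calls, 71.8%, was 59.2% with lists cut to equal length (1410 gained, 973 lost) and 59.3% for peaks with a fold of 5 or more (1124 and 770). Gained regions numbered 3134 without DAC replicate 1 and 3095 without DAC replicate 3, and lost regions 1075 to 1527 without any 1 of the 6 libraries, since a call then needs fewer libraries. Gained regions were spread over all chromosomes, from 1.66% of regions on chromosome 9 to 3.03% on chromosome 13, and the median rank difference per chromosome lay between -0.32 and 0.52 points.

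Gained and lost regions differed in sequence. An AP-1 motif was present in 382 of the 1796 gained regions (21.3%) and 18 of the 704 lost ones (2.56%), beside 7.91% of the regions called in 1 to 5 libraries that were neither and 7.36% of all regions. The share among gained regions was 27.49% for peaks with a fold of 5 or more. A CTCF core was present in 8 gained (0.445%) and 23 lost regions (3.27%), beside 2.1% of all. Lost regions were mostly repeat sequence in 9.09% of cases and gained regions in 3.84%, beside 8.36% of regions called in 1 to 5 libraries that were neither and 5.55% of all regions.

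The gained share also differed by copy number. Among regions called in exactly 3 of the 6 libraries, 24.4% of those without AP-1, 55.0% of those with 1 motif and 83.1% of those with 2 or more were gained, while 11.8%, 2.8% and 1.7% were lost. The motif lay a median of 34 bp from the summit in gained regions, 34 bp in the 18 lost ones that held it and 37 bp in all regions.

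**Figure D3:**
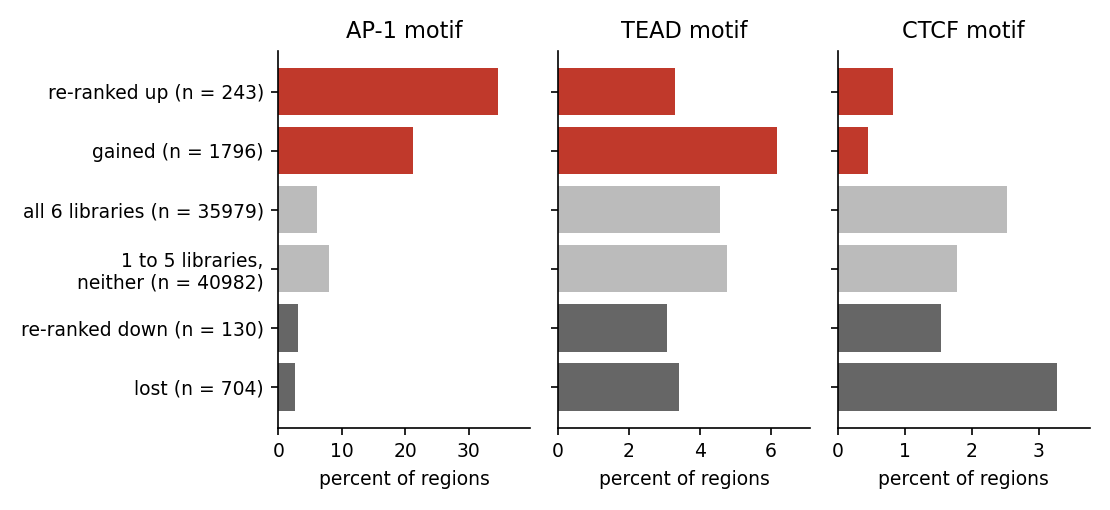
Percent of regions with the AP-1, TEAD or CTCF motif within 100 bp of the summit (horizontal axes, scaled separately) by class of region (vertical axis, n is the number of regions). AP-1 is present in 34.6% of regions re-ranked up and 21.3% of gained regions against 3.08% of those re-ranked down and 2.56% of lost regions; for CTCF the lost regions have the longest bar, 3.27%.

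CpG content differed between gained and lost regions as well. The median was 1.55 CpG per 100 bp in gained and 0.8 in lost regions, beside 1.02 in regions called in 1 to 5 libraries that were neither. Gained regions without an AP-1 motif had a median of 1.61 and those with one 1.32. Of the regions called in exactly 3 libraries, the gained share was 11.9% below 0.5 CpG per 100 bp, 17.8% from 0.5 to 1, 31.9% from 1 to 2 and 52.7% from 2 to 3. It was 50.4% from 3 to 5 and 32.4% among the 74 regions with 5 or more. The lost share went from 18.5% in the poorest class to 4.2% from 2 to 3, and was 5.6% from 3 to 5 and 10.8% in the richest class, beside 10.9% over all regions called in 3 libraries. Island-like CpG content was rare in both, at 1.5% of gained and 1.14% of lost regions, against 23.3% of regions called in all 6 libraries.

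**Figure D4:**
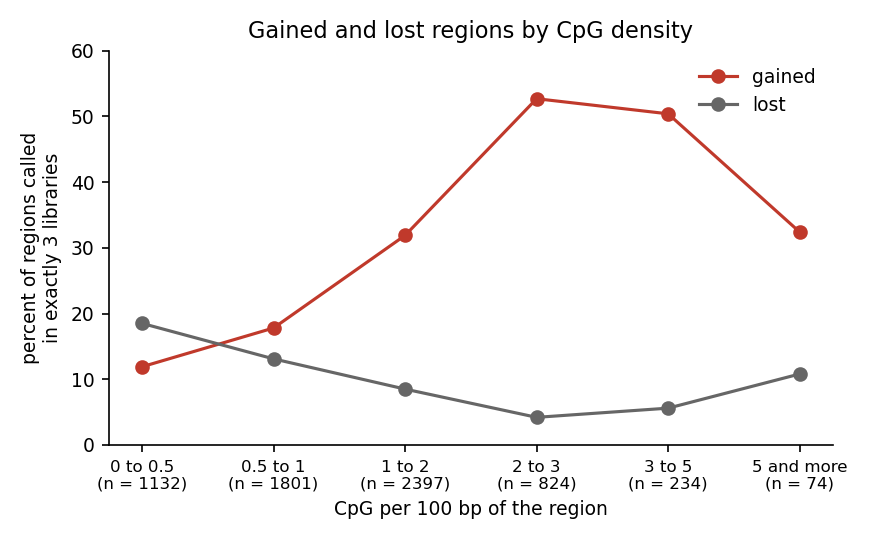
Percent of the regions called in exactly 3 of the 6 libraries that were gained (3 DAC libraries) or lost (3 controls), by CpG per 100 bp of the region (horizontal axis, n is the number of such regions). The gained share is 11.9% in the CpG-poorest class and 52.7% between 2 and 3 CpG per 100 bp; the lost share is 18.5% and 4.2% in the same classes.

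The 5 gained regions of highest rank in the DAC lists were all outside promoters. The strongest lay 82044 bp from the 5′ end of Foxn3, which encodes a forkhead repressor, with fold enrichments of 14.8, 15.3 and 13.2 (pileups 38, 48 and 39) and no peak in any control. It held 8.61 CpG per 100 bp and was one of the few island-like gained regions, as the 200 bases around its summit show with CpG in capitals.
Foxn3 (chr12:99645526-99645725): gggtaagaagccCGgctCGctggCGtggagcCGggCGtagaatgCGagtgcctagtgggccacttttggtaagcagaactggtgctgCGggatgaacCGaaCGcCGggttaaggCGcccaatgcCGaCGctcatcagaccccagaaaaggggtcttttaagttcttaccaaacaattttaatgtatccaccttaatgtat
The next was exonic in Fbxw7, the substrate receptor of a ubiquitin ligase, with 14.5, 14.5 and 12.6. The third lay 67259 bp from Zfp622 and held an AP-1 motif, with 12.2, 13.3 and 12.9. The fourth, near Erc2, which encodes a presynaptic protein, reached 13.8, 11.0 and 14.3. The fifth lay in an intron assigned to Hmgb1, the gene of a chromatin-binding protein, held AP-1 and reached 10.9, 11.2 and 13.9.

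The strongest lost regions had fold enrichments of similar size in the controls. One 3810 bp from Odf3l2 had fold enrichments of 14.4, 14.3 and 14.3 in controls (pileups 39, 42 and 42) and no DAC peak. The others lay near Flvcr2 (14.4, 12.02 and 14.6), in an intron of Myh14, a non-muscle myosin (11.1, 11.7 and 12.5), near St6galnac5, a sialyltransferase gene (14.02, 12.02 and 9.99), and in an intron of Tmcc1 (13.96, 16.1 and 9.99). None of the 5 held AP-1.

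Among regions open in all 6 libraries, limma called 243 re-ranked up (0.675%) and 130 down (0.361%). In each of the 373 the 2 groups of libraries did not overlap. Over all shared regions, called or not, the groups did not overlap in 11.4% with DAC higher and 10.9% with DAC lower. AP-1 was present in 84 of the 243 re-ranked up (34.6%) and 4 of the 130 re-ranked down (3.08%), beside 6.12% of all shared regions. Of shared regions with 1 motif 3.33% were re-ranked up, of those with 2 or more 11.5%, and of those with none 0.471%. Only 14 of the 243 were at promoters, and their median distance from a 5′ end was 50680 bp.

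These counts depend on every library. Leaving out 1 library left 4 to 61 regions up and 0 to 12 down, with 4 up and 1 down without DAC replicate 3, 5 and 1 without DAC replicate 2, 5 and 0 without control replicate 2, 21 and 6 without DAC replicate 1, 43 and 9 without control replicate 3 and 61 and 12 without control replicate 1. Ranked by pileup instead of fold enrichment, a setting chosen after the data were seen, 2171 regions were up (6.04%) and 1747 down (4.86%), and these included 230 of 242 and 109 of 130 calls by fold that could be ranked both ways.

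By the rank score the region with the largest rise was the one at Senp7 printed above (score difference 2.31), although the other 4 named here rose by more rank points, 65.9 to 68.2 against 49.9. Its fold enrichment was 8.99, 10.98 and 11.8 in controls and 18.2, 18.8 and 21.9 in DAC libraries, with pileups of 24, 30 and 32 against 72, 81 and 89. Its rank went from 34.8, 51.8 and 58.0 to 96.7, 97.7 and 99.8, all DAC libraries above all controls (limma, adjusted p = 0.0194). The region 23937 bp from Klf6, the gene of a zinc-finger transcription factor, rose from a fold of 4.67, 5.26 and 4.28 to 14.1, 11.2 and 14.4 (adjusted p = 0.01002).

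The region 147324 bp from Trim24, which encodes a transcriptional co-regulator, rose from 5.75, 5.63 and 6.07 to 14.8, 14.9 and 12.4 (limma, adjusted p = 0.00778). One 212729 bp from Snx13, without AP-1, rose from 3.96, 4.88 and 4.28 to 12.1, 12.7 and 12.8 (adjusted p = 0.00778), and one in an exon of Btbd10 from 7.55, 7.51 and 4.28 to 14.3, 17.98 and 13.6 (adjusted p = 0.0261). The 5 were named from regions whose ranks did not overlap between the groups, so their separation was a condition of the choice. Of these 5 regions, 3 held AP-1. The calls at Snx13 and Trim24 held without any 1 library, those at Senp7 and Klf6 were lost in 2 of 6 such settings, and that at Btbd10 in all 6.

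The 5 regions that fell most held no AP-1 motif. The one nearest to Zfp770 had 18.3, 13.9 and 14.99 in controls and 6.92, 5.99 and 4.91 in DAC libraries (limma, adjusted p = 0.021). Introns of Tenm4, a teneurin gene (13.6, 13.9 and 12.8 to 4.61, 6.33 and 5.28), and of L1cam, a neural adhesion gene (11.7, 12.5 and 13.9 to 5.76, 4.33 and 6.04), followed. The others were in introns of Mrpl33 (15.96, 17.97 and 15.01 to 7.44, 7.51 and 8.59), which encodes a mitochondrial ribosomal protein, and Dnm2 (14.4, 12.2 and 10.8 to 5.4, 4.97 and 5.89), which encodes dynamin. These 5 too were named from regions whose ranks did not overlap between the groups. With 1 library left out the call was lost in 2 of 6 settings at Tenm4, in 4 at Zfp770 and Mrpl33, in 5 at Dnm2 and in all 6 at L1cam. With the replicate block the call at Dnm2 was lost (adjusted p = 0.051, limma).

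By gene, 1550 of the 16863 genes with a region had a gained one and 662 a lost one. Those named here have the highest counts and were picked by these same counts. Over all regions 2.26% were gained and 0.886% lost. Pls3, which encodes an actin-bundling protein, had 5 gained of 14 regions, Dst, a cytoskeletal linker, 5 of 44, and Sox5, a SOX factor that acts in melanocytes, 5 of 50. Nobox had 4 of 7, Dicer1, the microRNA-processing enzyme, 4 of 9, Arhgap10 4 of 18, Gadd45g, a growth-arrest gene, 4 of 18, and Igfbp7 4 of 25 beside 2 lost. Of the genes with most lost regions, Rbfox3, a neuronal splicing factor, had 3 of 23, Zfat 3 of 49, and Arsa, Rin1 and Sowahd 2 of 3 each. Regions were given to the gene they lie in or the nearest 5′ end, so long genes and genes in open surroundings collect more of them.

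Genes that control the melanocyte lineage had 11 gained and 2 lost of 279 regions (3.94% and 0.72%, against 2.26% and 0.89% of all regions). Of their 119 shared regions, 3 were re-ranked up (2.52%) and 0 down, beside 0.675% and 0.361% of all shared regions. Of these 3, 2 were at Kit. The median rank difference of the shared ones was -0.43 points, beside 0.04 over all shared regions. The gained ones lay at Sox5 (5), Sox9 (3), Kit, Met and Zeb2, and the lost ones at Foxd3 and Pax3. In an intron of Sox5 a shared region rose from 7.91, 7.14 and 7.85 to 11.9, 13.9 and 11.3 (limma, adjusted p = 0.0261). At Kit, the receptor for stem cell factor, an intronic region rose from 3.96, 4.88 and 5.71 to 8.98, 8.23 and 8.83 (adjusted p = 0.0377) and one 109253 bp from the 5′ end from 5.39, 4.51 and 4.28 to 7.3, 8.66 and 7.17 (adjusted p = 0.0392). Neither Kit region held AP-1. The pigment synthesis and melanosome genes had 1 gained and 3 lost of 177 regions, and 0 of their 89 shared regions were re-ranked.

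Promoters were taken as 1000 bp to either side of a gene's 5′ end, and 10152 of them had no peak in any library. Of 21738 promoters, 50 (0.23%) were gained and 15 (0.069%) lost, which made 76.9% of these calls gains. Of regions at promoters that were called in exactly 3 libraries, 32.4% were gained and 12.8% lost, beside 27.8% and 10.9% of all such regions. The split was 34 to 30 (53.1% gains) for peaks with a fold of 5 or more and 44 to 27 (62.0%) with lists of equal length. Leaving out 1 library gave 62 to 101 gained and 21 to 34 lost promoters, with 101 and 21 without DAC replicate 1, 85 and 27 without DAC replicate 3, 76 and 32 without control replicate 1 and 66 and 34 without DAC replicate 2. In 34 of the 50 gained genes no annotated transcript start had a control peak, and in 14 another start had one in all 3 controls. Just 1 gained promoter was island-like. Of the 5 lost ones that were, 4 belong to the histone genes Hist1h2bq, Hist1h2ao, Hist1h2ap and Hist1h2br, near-identical copies in which reads cannot be placed with certainty. Hist1h2bq and Hist1h2ao were called on the same peaks, and so were Hist1h2ap and Hist1h2br. Some gained promoters shared peaks as well, such as Zfp456 with Gm28041 and Ly6g6e with Ly6g6d, so promoter counts exceed the number of separate sites.

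The 10 gained promoters of highest rank reached fold enrichments of 6.02 to 10.98. Cul4b, a ubiquitin ligase scaffold, had 8.45, 10.3 and 7.93 and Xlr3c, of an X-linked family of similar copies, 8.07, 10.98 and 7.93. Fas, which encodes a death receptor and is a p53 target, had 8.45, 8.66 and 7.34 (pileups 21, 25 and 19). The rest were Trim12c, Ak7, Tex19.1, Ash2l (a subunit of histone H3 lysine methyltransferase complexes), Msl3l2, Usp7 (a deubiquitinase) and Lpar2 (a lysophosphatidic acid receptor). For Cul4b, Ash2l and Usp7 another transcript start was open in every control.

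Tex19.1, a germ cell gene that restrains retrotransposons and is normally kept methylated outside the germ line, had the highest pileups of these 10, 34, 51 and 29, and fold enrichments of 8.74, 9.50 and 6.94. Its summits lay at -119, -108 and -154 bp from the 5′ end. The 250 bases before the start, from the RefSeq promoter table for GRCm38.p6, held 15 CpG and 2 AP-1 motifs (capitals), 117 and 101 bp before the start, next to the summits. The same stretch of Fas held 11 CpG and 1 AP-1 motif, 211 bp before the start, while its summits were 12, 26 and 12 bp before the 5′ end.
Tex19.1 (chr11:121145893-121146142): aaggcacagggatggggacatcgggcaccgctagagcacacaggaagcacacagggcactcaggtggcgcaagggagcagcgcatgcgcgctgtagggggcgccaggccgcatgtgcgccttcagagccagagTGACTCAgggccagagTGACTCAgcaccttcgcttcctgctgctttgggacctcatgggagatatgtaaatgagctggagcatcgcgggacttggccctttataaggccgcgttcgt
Fas (chr19:34290409-34290658): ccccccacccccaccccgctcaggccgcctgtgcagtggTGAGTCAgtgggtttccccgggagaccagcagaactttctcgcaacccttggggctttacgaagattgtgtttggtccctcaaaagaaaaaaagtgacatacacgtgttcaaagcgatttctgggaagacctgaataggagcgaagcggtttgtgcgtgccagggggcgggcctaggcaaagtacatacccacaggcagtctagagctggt
In that table of 27025 promoters, 5.17% held at least 1 AP-1 motif and 0.2% held 2 or more. Of the 41 gained promoters matched to it, 5 held 1 or more, and of the 7 lost ones matched 0 did.

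Other gained promoters of listed genes were weaker. Dppa2, a pluripotency and germ cell gene, had fold enrichments of 5.76, 6.99 and 4.53. Rbfox3 had 4.99, 5.33 and 3.4. Cdkn1a, which encodes the cell-cycle inhibitor p21, had 3.23, 3.22 and 2.89 with pileups of 75, 92 and 67, which is a high count on a high local background, and another start of it was open in all 6 libraries. The lost promoters beyond the histone genes were Cfap97d2 (9.81, 9.78 and 6.17 in controls), AW822073, Vmn1r183, Fgf21 and Fut1 (1 shared peak), March11, Pcdhb10 and 4 weaker ones, and none is a member of the lists.

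Of the 10524 promoters with a peak in all 6 libraries, limma called 13 re-ranked up (0.124%) and 5 down (0.0475%). Fggy, a carbohydrate kinase family gene, rose from 6.83, 7.89 and 6.43 to 15.4, 13.3 and 12.1 (adjusted p = 0.00493). Nat2, an arylamine acetyltransferase gene, rose from 8.27, 8.26 and 7.85 to 12.7, 13.7 and 14.3 (adjusted p = 0.00245). Nqo2, a quinone reductase gene, rose from 4.32, 4.13 and 5.36 to 9.6, 10.8 and 8.22 (adjusted p = 0.00586).

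Ppargc1a, whose product is a co-activator of mitochondrial biogenesis, rose from 3.6, 3.76 and 4.28 to 8.45, 6.99 and 8.3 (limma, adjusted p = 0.00493). Spef2, Cyp2j9, Pnrc1, Acaa1b, Prss12 and 3 with smaller differences were also called, each with the DAC libraries above the controls. That separation was a condition for naming re-ranked promoters, and its share over all promoters is not given here. Over all shared regions, called or not, the groups did not overlap in 11.4% with DAC higher and 10.9% with DAC lower. Arhgef1 had the smallest adjusted p, 5.79e-07, and lies at the edge of the window. Its strongest peak in DAC libraries had a summit 1367 or 1368 bp after the 5′ end and reached into the window, while the control peak counted there was at 218 or 219 bp, and with promoters of 2000 bp the adjusted p was 0.588.

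The promoters that fell were Phyhd1 (7.89, 7.17 and 7.5 to 3.05, 3.95 and 4.34), Psrc1, a spindle gene (15.5, 16.6 and 17.3 to 11.5, 11.6 and 10.1), Rac3, a small GTPase gene (13.3, 12.4 and 10.8 to 6.63, 6.56 and 7.3), Gm47995 and the interferon-induced Rtp4. Rtp4 is again a matter of the window, with control summits at -1369, -1362 and -1477 bp from the 5′ end and DAC summits within it, and an adjusted p of 0.899 with promoters of 2000 bp. Ranked by pileup, the calls at Rac3 (limma, adjusted p = 0.959) and Psrc1 (adjusted p = 0.466) were lost, and so was that at Prss12 among those up (adjusted p = 0.064). The replicate block ended the calls at Psrc1 (limma, adjusted p = 0.075), Rtp4 (0.066) and Cyp2j9 (0.051). With limma's prior variance not tied to the mean, Arhgef1 alone was called up and 0 promoters down, and Nat2 (adjusted p = 0.064), Ppargc1a (0.071), Fggy (0.090) and Nqo2 (0.090) lost their calls with the rest, beside 1358 with an unadjusted p under 0.05 in the reported fit. Without 1 library 5 to 10 promoters were up and 0 to 5 down, with 5 and 1 without control replicate 3, 6 and 0 without control replicate 1, 8 and 0 without control replicate 2 and 6 up without DAC replicate 2. The calls at Arhgef1, Nat2, Fggy, Nqo2 and Ppargc1a held in all 6 of these settings.

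**Figure D5:**
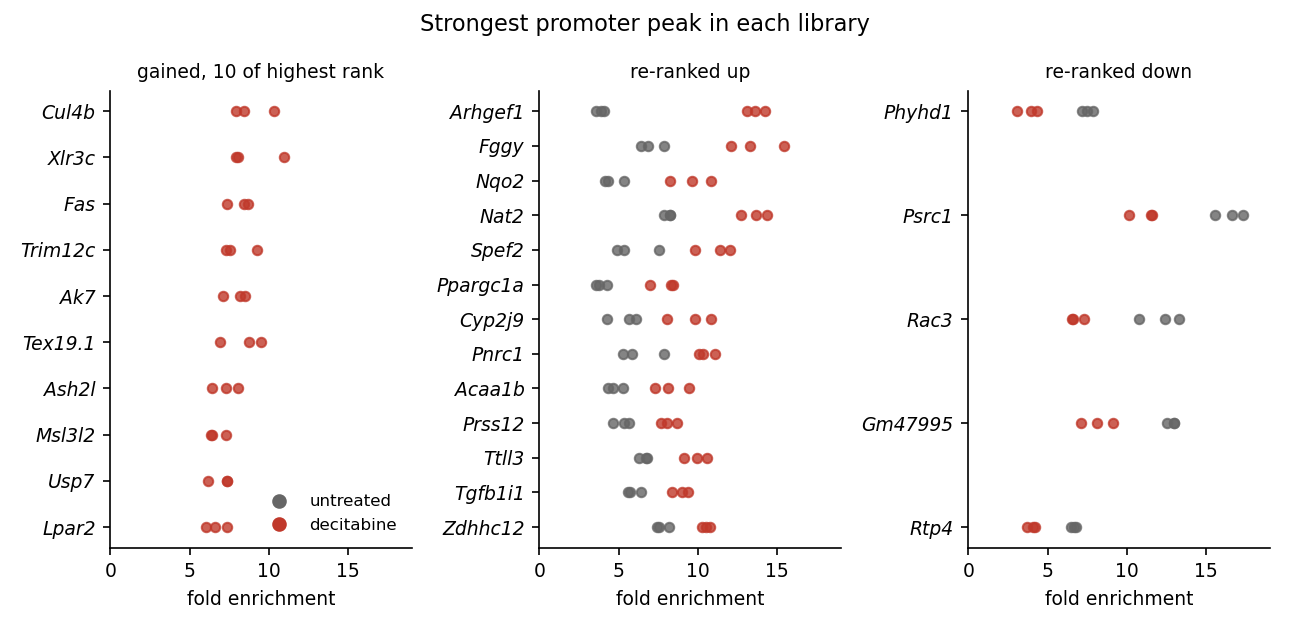
Fold enrichment of the strongest peak within 1000 bp of the 5′ end (horizontal axis) in each library, for the 10 gained promoters of highest rank, the 13 re-ranked up and the 5 re-ranked down (vertical axis). Grey points are untreated and red points DAC libraries. Gained promoters have no control peak. In the other panels the grey and red points do not overlap for any gene, which was a condition for naming these genes.

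The genes of AP-1 itself are read against 0.23% of all promoters gained and 0.069% lost. Of 16 AP-1 subunit genes, 12 had a promoter peak in every library, and 0 were gained, lost or re-ranked (median rank difference -0.26 points, beside 0.24 over all promoters). Jun had fold enrichments of 8.61, 9.02 and 8.69 in controls and 8.29, 7.93 and 7.43 in DAC libraries (limma, adjusted p = 0.799). Fosl1 had no promoter peak in any library. Regions assigned to these genes held 2 gained and 0 lost of 100, at Fos and Batf, near the 2.26% and 0.886% of all regions. Of their 44 shared regions 0 were re-ranked, beside 0.675% up and 0.361% down of all shared regions.

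p53 targets had 2 gained promoters of 24, Fas and Cdkn1a, and 0 lost, beside 0.23% and 0.069% of all promoters. Of the 114 regions assigned to them 6 were gained (5.26%, beside 2.26% of all regions) and 0 lost (0.886% of all), at Cdkn1a (2), Fas, Btg2, Phlda3 and Zmat3. The median rank difference of their 19 testable promoters was -3.32 points, beside 0.24 for all promoters. The exonic region at Zmat3 was the strongest, with 8.02, 9.45 and 9.29 and pileups of 20, 33 and 29. Its lowest percentile of fold enrichment within the DAC peak lists was 52.8, and that of the Fas region was 49. For Btg2 it was 11.1, and the 2 Cdkn1a regions (0.7 and 0.2) and the Phlda3 region (0.1) lay at the bottom of the lists.

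Of 33 germ cell and cancer-testis genes, 27 had no promoter peak in any library, and 2, Tex19.1 and Dppa2, were gained, beside 0.23% of all promoters. None of the 34 piRNA and meiosis genes and none of the 34 imprinted genes was gained or lost at its promoter, which is near the shares of 0.23% and 0.069% over all promoters. The same holds for the immune lists. No promoter was gained or lost among 20 genes of MHC class I and antigen processing, 10 of MHC class II, 34 interferon-induced genes, 18 nucleic acid sensors, 18 chemokines, 20 checkpoint and NK ligands or 20 pyroptosis genes, and Rtp4 was the only one of these promoters re-ranked. Beside 2.26% gained and 0.886% lost of all regions, chemokine genes had 2 gained (6.25%) and 1 lost (3.12%) of 32 regions and MHC class II genes 2 gained (5.71%) and 0 lost of 35. Pyroptosis genes had 3 gained and 2 lost of 97, interferon-induced genes 2 and 2 of 89, MHC class I genes 1 and 0 of 40, checkpoint and NK ligands 1 and 0 of 95, and sensors 0 and 1 of 40.

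Collagen and matrix genes had 2 of 73 shared regions re-ranked up (2.74%) and 0 down, beside 0.675% and 0.361% of all shared regions, and 1 gained (0.61%) and 0 lost of 163 regions. The region 240552 bp from Fn1, the fibronectin gene, held AP-1 and rose from 8.27, 6.39 and 7.85 to 10.4, 12.3 and 12.2 (limma, adjusted p = 0.0369), and the one 87453 bp from Col1a2 rose from 7.79, 7.03 and 6.87 to 9.14, 12.7 and 11.7 (adjusted p = 0.0491). The Socs1 region printed above, 30819 bp from this inhibitor of cytokine signalling, rose from 8.87, 8.18 and 7.76 to 11.6, 11.5 and 11.4 (adjusted p = 0.0364). Among regions that fell, one 386170 bp from the interferon-induced Cmpk2 went from 14.3, 16.6 and 13.1 to 7.68, 8.66 and 6.79 (adjusted p = 0.0299) and one in an intron of the imprinted Sgce from 12.7, 15.3 and 13.6 to 8.96, 8.5 and 7.32 (adjusted p = 0.0465).

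Promoters of 17 of 20 pigment genes were open in all 6 libraries and had a median rank difference of -0.79 points. Mitf had fold enrichments of 17.02, 18.3 and 19.8 in controls and 18.1, 19.7 and 18.2 in DAC libraries (limma, adjusted p = 0.549). Tyrp1, Dct, Mlana and Pmel had adjusted p-values of 0.555 to 0.989, and Sox10, with folds of only 3.16, 3.37 and 3.17 against 3.08, 3.13 and 3.18 despite pileups of 151 to 200, lies on a high local background (adjusted p = 0.952). Tyr had no promoter peak in any library. Dnmt1, the maintenance methyltransferase that decitabine traps, had no peak at its annotated 5′ end, and another start of it was open in all 6 libraries. Of its 7 regions 1, intronic and with an AP-1 motif, was gained at 4.15, 3.38 and 4.57. This was a weak call, with a lowest percentile of 5.7 within the DAC peak lists. Genes of the DNA methylation machinery had 3 gained (3.19%) and 0 lost of 94 regions, beside 2.26% and 0.886% of all regions.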

How the data were processed

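The data are 1 narrowPeak list per library, called on each library alone. The submitters' processing notes name Bowtie2, Picard, MACS2, DiffBind, ChIPseeker, FastQC, MultiQC and the build mm10, without versions or roles. The fold enrichment, a ratio of each summit to the local background of its library, is the authors' value. The −log10 p-value and −log10 q-value deposited with each peak grow with depth, and the deposited score is 10 times the −log10 q-value without decimals. Depth was read as the pileup at each summit, recovered as the whole number that gives both the deposited fold enrichment and p-value under a Poisson model with 1 added to pileup and background, within 0.01 of the −log10 p, for 99.98 to 100% of peaks.

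Peaks on chromosomes 1 to 19 and X were merged where they overlapped by at least 1 bp. Sequence came from GRCm38.p6, no peak ran past a chromosome end, and genes came from GENCODE M21. Of 500 listed symbols in 25 lists, 499 matched, 3 through an older symbol. The 20 motifs were sought on both strands within 100 bp of the strongest summit. Island-like means a CpG observed to expected ratio above 0.6 and GC above 50%. Normal scores of within-library ranks were tested with limma 3.58.1 (R 4.3.3, trended prior, Benjamini-Hochberg over all regions or promoters). On simulated scores of 35979 regions, shifts of 1 and 2 score units were recovered in 49 and 99 of 100 regions, with 6 false calls. These scores had independent normal noise, as limma assumes, and were not ranked again. The simulation therefore cannot show how well the calls hold in the real lists. Single values of libraries were tested by two-sided exact permutation over all 20 relabellings. Same-numbered libraries did not deviate together (correlations -0.031 to -0.011), so the replicate number was not used as a block. Lists are described by counts and medians.

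Named are the 10 gained, lost and re-ranked promoters and 5 regions per class of highest rank or largest difference, up to 30 changed members of lists, the genes with most gained (8) and lost (5) regions, and 11 fixed genes. Re-ranked promoters and the 5 re-ranked regions per direction were named from those whose groups did not overlap. Further list members were named after their values were seen. The members and lists were chosen with earlier results of these data known.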

Additional observations from a re-analysis of the deposited data

How the results depend on the processing

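The rise of AP-1 regions kept its direction under every alternative run. The rank difference of shared AP-1 regions was 10.1 to 10.8 points with 1 library left out, and that of the share of peaks 1.95 to 2.07 percentage points. The AP-1 share of gained regions was 24.87% at a −log10 q of at least 5, 27.49% at a fold of at least 5, 23.26% at equal numbers of peaks, 16.72% when 2 of 3 libraries sufficed and 18.0 to 20.8% with 1 library left out. That of regions re-ranked up was 48.57% with the replicate block, 24.74% by pileup and 44.26 to 55.81% in the settings without 1 library that left 20 or more calls.

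Counts moved more. Gained and lost regions were 1124 and 770 at a fold of at least 5, 5167 and 2568 with 2 of 3 libraries, and 2165 to 3134 and 1075 to 1527 with 1 library left out. Gained and lost promoters were 152 and 56 with 2 of 3 libraries, 62 to 101 and 21 to 34 with 1 left out, and lost promoters 30 at a fold of at least 5 and 27 at equal numbers of peaks. Re-ranked regions, up and down, were 524 and 226 on centred log2 fold enrichment, 1386 and 923 by −log10 q, 2171 and 1747 by pileup, and 4 to 61 and 0 to 12 with 1 library left out. Re-ranked promoters were 50 and 19 by −log10 q, 122 and 92 by pileup, 1 and 0 without the trended prior, 5 to 10 and 0 to 5 with 1 library left out, and those down 9 on log2 fold enrichment and 13 at a mean fold of at least 5. With the replicate block, 35 regions were up and 13 down, and 13 and 5 promoters, of which 12 and 3 were those reported; Psrc1, Rtp4, Cyp2j9 and the Dnm2 region lost their calls. Region calls that matched reported ones, up and down, were 35 and 12 with the replicate block and 243 and 127 on log2 fold enrichment. By −log10 q they were 238 and 117, by pileup 230 and 109, and with 1 library left out 4 to 45 and 0 to 11. Fewer samples leave fewer degrees of freedom; the cause of the other moves was not tested.

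The rank score difference of the Rac3 promoter was 0.019 by pileup and that of Rtp4 0.047 with promoters of 2000 bp, both of opposite sign to the reported one. The median width of peaks, 19 bp lower after DAC, was 1 bp higher at equal numbers of peaks. The depth limits weak peaks: a summit on the genome background needed 7 or 8 fragments, so that a lost or gained call near that number is a matter of a few fragments.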
